A study of Homo sapiens with 6 samples.

Results

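Keratin genes, 10 in number, were followed in PC3 cells, an established line from a human prostate cancer metastasis. They were the basal keratins KRT5 and KRT14, the stress keratins KRT6A, KRT6B, KRT16 and KRT17, the hair follicle keratin KRT75, and the simple epithelial keratins KRT8, KRT18 and KRT19. Members were found as the probe sets whose platform annotation names only that gene. Of the 10 genes, 7 had such a probe set, with 8 probe sets in all out of 54675 on the array, and 5 passed a filter on low values (a mean of at least log2 4 over all arrays) among 11131 genes that passed it. The genes were chosen by name with results of these same arrays in view, selected on the small p-values of KRT75 and KRT16 for VEGF-C siRNA against scrambled siRNA. Values of the members are therefore given as a description, and no test is used to support them.

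RNA was taken 72 h after transfection of PC3 cells with an siRNA pool against VEGF-C, an siRNA pool against NRP-2 (neuropilin-2, a co-receptor of VEGF-C) or scrambled siRNA, with 2 HG-U133_Plus_2 arrays in each of the 3 groups. All groups grew in RPMI medium with 10% serum. One pool per target was used, and the labels name different suppliers for the pools, so that a target, its pool and its supplier cannot be told apart. The labels do not say that arrays of a group came from separate cultures, so the spread between them may be technical.

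Keratins are the intermediate filament proteins of epithelial cells, and each filament is built from a type I and a type II keratin. KRT5 with KRT14 forms the filaments of basal cells, including the basal layer of the prostate, and KRT8 with KRT18 those of simple and luminal epithelium, where KRT19, a short type I keratin, is also made. KRT6A, KRT6B, KRT16 and KRT17 are low in resting epidermis and are induced in wounded or inflamed skin, and KRT75 is a type II keratin of the companion layer of the hair follicle.

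Of the targeted genes, VEGFC had log2 8.46 and 7.27 after VEGF-C siRNA, 11.99 and 11.67 after NRP-2 siRNA, and 11.81 and 11.80 after scrambled siRNA. NRP2 had 5.51 and 6.01 after VEGF-C siRNA, 3.41 and 2.81 after NRP-2 siRNA, and 4.77 and 4.92 after scrambled siRNA. Each was lowest with its own siRNA. NRP2 was dim, with a mean of log2 4.57 and NRP-2 arrays near the array medians (2.997 to 3.067). It was also higher after VEGF-C siRNA than after scrambled siRNA, with no overlap (+0.91, SE 0.26). The epithelial markers EPCAM (14.31 to 14.80) and CDH1 (13.65 to 14.34) were high on all 6 arrays, as was VIM (13.11 to 13.48), an intermediate filament of mesenchymal cells. Of markers of other cell types with a named probe set, 2 of 8 for fibroblasts (COL1A1 and COL3A1), 1 of 4 for leukocytes (LYZ) and 2 of 5 for endothelium (PECAM1 and KDR) passed the filter, and DCN, LUM, PTPRC, CD3E, CDH5 and VWF did not. The mean of the 8 fibroblast genes was 4.15 and 4.36 after VEGF-C siRNA, 4.22 and 4.44 after NRP-2 siRNA, and 4.39 and 4.41 after scrambled siRNA. Of the measured fibroblast genes, COL1A1 had 9.97 and 10.13 after VEGF-C siRNA, 9.56 and 10.26 after NRP-2 siRNA, and 10.73 and 10.77 after scrambled siRNA. COL3A1 had 7.04 and 8.27 after VEGF-C siRNA, 7.94 and 8.75 after NRP-2 siRNA, and 7.73 and 8.25 after scrambled siRNA. The scrambled arrays were the highest for COL1A1 and overlapped the other groups for COL3A1. The part of other cell types in the keratin values was not tested.

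RefSeq promoter windows were at hand for 3 members, KRT75, KRT5 and KRT8. The 250 bases before the start of KRT75 and of KRT5 are shown because both are type II keratin genes of chromosome 12, of which KRT75 was measured at different levels in the 3 groups and KRT5 lay at the floor in all of them. They are chr12:52434372-52434621 and chr12:52520395-52520644 in GRCh38.p14, both on the minus strand and printed in that direction, with capitals on the matches to the motifs named next.
KRT75: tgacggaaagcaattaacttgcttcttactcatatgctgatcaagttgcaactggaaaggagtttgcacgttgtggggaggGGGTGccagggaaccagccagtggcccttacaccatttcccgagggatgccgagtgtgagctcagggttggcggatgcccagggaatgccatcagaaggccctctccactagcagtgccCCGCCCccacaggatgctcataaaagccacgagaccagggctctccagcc
KRT5: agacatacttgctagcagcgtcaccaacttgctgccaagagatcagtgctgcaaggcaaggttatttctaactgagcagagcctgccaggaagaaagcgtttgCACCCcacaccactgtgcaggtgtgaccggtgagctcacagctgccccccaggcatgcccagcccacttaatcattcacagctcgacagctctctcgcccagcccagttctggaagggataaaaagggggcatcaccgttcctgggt
Letters searched on both strands were TGANTCA for AP-1, GGGCGG for SP1, TATAAA for the TATA box, CACCC for KLF factors and the NF-kB motif. KRT75 had 1 match to the SP1 letters, from 50 to 45 bases before the start, and 1 to the KLF letters, from 169 to 165 bases before it. KRT5 had 1 match, to the KLF letters, from 147 to 143 bases before the start. Matches did not overlap each other. Among 35116 promoters of the same length, 42.6% held the SP1 letters, 54.7% those of KLF, 6.57% those of AP-1, 10.7% the TATA box and 1.73% those of NF-kB. The KRT8 window also had 1 KLF match, and is not printed because its start lies 23391 bases inside the outer edge of the annotated gene.

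KRT75 was the member whose 3 groups stood fully apart. Its 1 probe set (207065_at) had log2 8.78 and 8.58 after VEGF-C siRNA, 7.95 and 8.003 after NRP-2 siRNA, and 7.31 and 7.20 after scrambled siRNA. Every VEGF-C array lay above every NRP-2 array, and every NRP-2 array above every scrambled array. Means were 8.68 ± 0.14 after VEGF-C siRNA, 7.98 ± 0.04 after NRP-2 siRNA and 7.26 ± 0.08 after scrambled siRNA (SD, n = 2 each). The log2 difference to scrambled siRNA was +1.43 (SE 0.13, 2.69-fold) for VEGF-C siRNA and +0.72 (SE 0.13, 1.65-fold) for NRP-2 siRNA, and both comparisons use the same 2 scrambled arrays. NRP-2 siRNA minus VEGF-C siRNA was -0.71 (SE 0.13). Among the 11131 genes ordered from the highest difference to the lowest, that with VEGF-C siRNA ranked 72 and that with NRP-2 siRNA 499. By size in either direction these ranks were 94 and 878. In RNA from bulk cultures such as these, more cells making a transcript and more of it per cell cannot be told apart.

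KRT16, a type I stress keratin, stood higher after VEGF-C siRNA than after either NRP-2 or scrambled siRNA. Its probe set (209800_at) had log2 8.13 and 7.74 after VEGF-C siRNA, 6.01 and 5.87 after NRP-2 siRNA, and 6.36 and 5.75 after scrambled siRNA. Both VEGF-C arrays lay above the other 4, while the NRP-2 arrays fell between the scrambled ones. Means were 7.94 ± 0.28 after VEGF-C siRNA, 5.94 ± 0.10 after NRP-2 siRNA and 6.06 ± 0.43 after scrambled siRNA (SD, n = 2 each). VEGF-C siRNA minus scrambled siRNA was +1.88 (SE 0.25, 3.68-fold), rank 12 from the top among 11131 genes. NRP-2 siRNA minus scrambled siRNA was -0.11 (SE 0.25), less than the spread of the scrambled arrays. NRP-2 siRNA minus VEGF-C siRNA was -1.996 (SE 0.25, 3.99-fold), rank 26 by size in either direction. The order of its groups was thus VEGF-C siRNA first, with no order between NRP-2 and scrambled siRNA beyond their spread, whereas KRT75 separated those also.

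The scrambled arrays differed for KRT16 by 0.61 and for KRT75 by 0.11, and they also differed in cell cycle genes. The mean of 23 G2 and mitosis genes was log2 10.99 and 10.22 after VEGF-C siRNA, 10.79 and 9.75 after NRP-2 siRNA, and 10.09 and 8.42 after scrambled siRNA. Of these genes 17 were 2-fold higher without overlap after VEGF-C siRNA than after scrambled siRNA (1.9% of all genes), and 0 after NRP-2 siRNA (1.36%). All 23 lay above 0 in both comparisons, with medians of +1.31 and +0.98. Under other settings these medians ranged from +0.03 to +2.20 and from -0.01 to +1.82. The mean of the 23 genes thus differs between groups, and a fit with it cannot tell siRNA and cell cycle apart. With that mean as a covariate, VEGF-C siRNA minus scrambled siRNA was +1.44 (SE 0.21) for KRT16 and +1.34 (SE 0.20) for KRT75. NRP-2 siRNA minus VEGF-C siRNA was then -1.89 (SE 0.16) for KRT16 and -0.68 (SE 0.15) for KRT75. Without scrambled array 2, the one with the low mean, the difference with VEGF-C siRNA was +1.58 for KRT16 and +1.37 for KRT75.

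**Figure D1:**
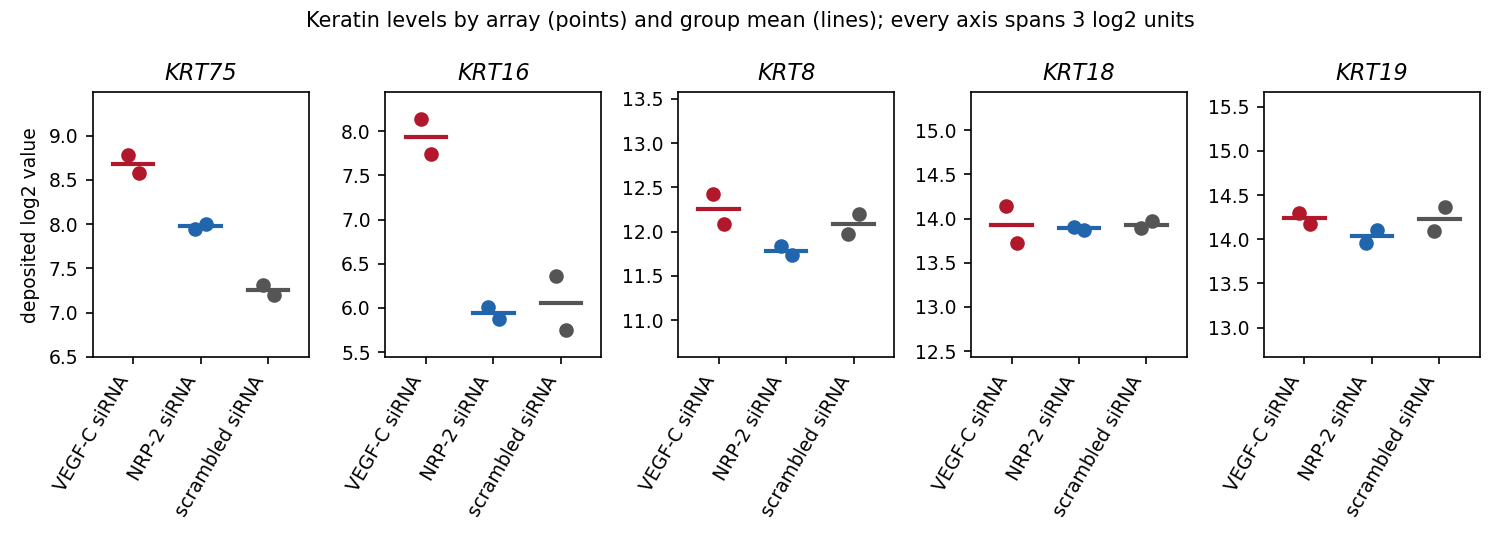
Deposited log2 values (vertical axis) of the 5 keratin members past the low-value filter, with a point for each array and a line at the mean of each group of 2, in axes that all span the same range of log2. KRT75 takes 3 separate levels, KRT16 is high in the VEGF-C siRNA arrays (8.13 and 7.74), and KRT8, KRT18 and KRT19 move little.

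The simple epithelial keratins stayed within narrow ranges. KRT8, the type II partner of KRT18, had log2 12.42 and 12.09 after VEGF-C siRNA, 11.83 and 11.74 after NRP-2 siRNA, and 11.97 and 12.20 after scrambled siRNA (209008_x_at). VEGF-C and scrambled arrays overlapped, with a difference of +0.17 (SE 0.17), and both NRP-2 arrays lay just below all others. NRP-2 siRNA minus VEGF-C siRNA was -0.47 (SE 0.17, 1.39-fold) for KRT8, or -0.31 without VEGF-C array 1, and NRP-2 siRNA minus scrambled siRNA was -0.30 (SE 0.17), which was -0.19 without scrambled array 2.

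KRT18, the type I partner of KRT8, had 14.14 and 13.72 after VEGF-C siRNA, 13.91 and 13.87 after NRP-2 siRNA, and 13.89 and 13.97 after scrambled siRNA (201596_x_at). Its groups overlapped in every comparison, and its 3 differences were -0.0007, -0.04 and -0.04 with an SE of 0.17, for VEGF-C against scrambled siRNA, NRP-2 against scrambled siRNA, and NRP-2 against VEGF-C siRNA. KRT19 had 14.30 and 14.17 after VEGF-C siRNA, 13.96 and 14.10 after NRP-2 siRNA, and 14.09 and 14.37 after scrambled siRNA (201650_at). NRP-2 siRNA minus VEGF-C siRNA was -0.21 (SE 0.15, and -0.13 without NRP-2 array 1) with no overlap, while the scrambled arrays overlapped both groups, and VEGF-C siRNA minus scrambled siRNA was +0.01 (SE 0.15). Names of the KRT8 and KRT18 probe sets end in _x_at, the suffix Affymetrix gives to sets that can bind related transcripts, and both genes have pseudogene copies, so their values may hold more than 1 transcript.

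The basal keratins among the members, KRT5 and KRT14, were not measured above the floor, unlike KRT15 outside them (mean log2 10.93). KRT5 had log2 1.82 and 1.82 after VEGF-C siRNA, 1.80 and 1.81 after NRP-2 siRNA, and 1.84 and 1.81 after scrambled siRNA (201820_at). KRT14 had 2.30 and 2.26 after VEGF-C siRNA, 2.26 and 2.26 after NRP-2 siRNA, and 2.26 and 2.23 after scrambled siRNA (209351_at). All 12 values lay below the medians of the arrays, which ran from 2.997 to 3.067, and values this low have no order. A second KRT19 probe set (228491_at) was as flat, at 2.02 to 2.06, and disagreed in level with the first. The filter separated the members widely, since KRT16, the dimmest one inside it, had a mean of 6.64 and KRT14, the brightest outside, 2.26. KRT6A, KRT6B and KRT17 have no probe set named here and are not analysed. KRT16 is close in sequence to KRT14 and KRT17, and whether its probe set also binds KRT17 transcripts was not tested, while the KRT14 probe set stayed at the floor in every array.

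Counted together, 2 of the 5 measured members, KRT75 and KRT16, were at least 2-fold higher after VEGF-C siRNA than after scrambled siRNA with no overlap between arrays, against 1.9% of all 11131 genes, and 0 were 2-fold lower (1.09%). The same 2 members were those without overlap in either direction (26.8% of all genes higher, 26.6% lower). With NRP-2 siRNA against scrambled siRNA 0 of 5 were 2-fold apart (1.36% of all genes higher, 1.38% lower), and arrays did not overlap for KRT75, which was higher (25.3% of all genes), and for KRT8, which was lower (24.4%). For NRP-2 siRNA against VEGF-C siRNA 1 of 5, KRT16, was 2-fold lower (1.56%) and 0 were higher (1.77%). All but KRT18, 4 of 5, were lower there with no overlap (22.4%), and 0 were higher with none (24.1%). Nothing is read from these shares, because the members were chosen with the same arrays in view. The median difference of the 5 members was +0.17 after VEGF-C siRNA, beside -0.004 over all genes. It was -0.11 after NRP-2 siRNA, beside +0.01. For NRP-2 siRNA minus VEGF-C siRNA it was -0.47, beside +0.02.

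Limma's adjusted p over all genes was under 0.05 for 0 of 5 members in each of the 3 comparisons, as for 0% of all genes in each. Its lowest value among the members was 0.204 for VEGF-C against scrambled siRNA, 0.213 for NRP-2 against scrambled siRNA and 0.098 for NRP-2 against VEGF-C siRNA. An unadjusted p under 0.05 was found for 2 of 5 members in the first comparison (14.8% of all genes), 1 in the second (13.3%) and 3 in the third (18.2%). The members were selected on the small p-values of KRT75 and KRT16 in the first comparison, so nothing is read from these counts.

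**Figure D2:**
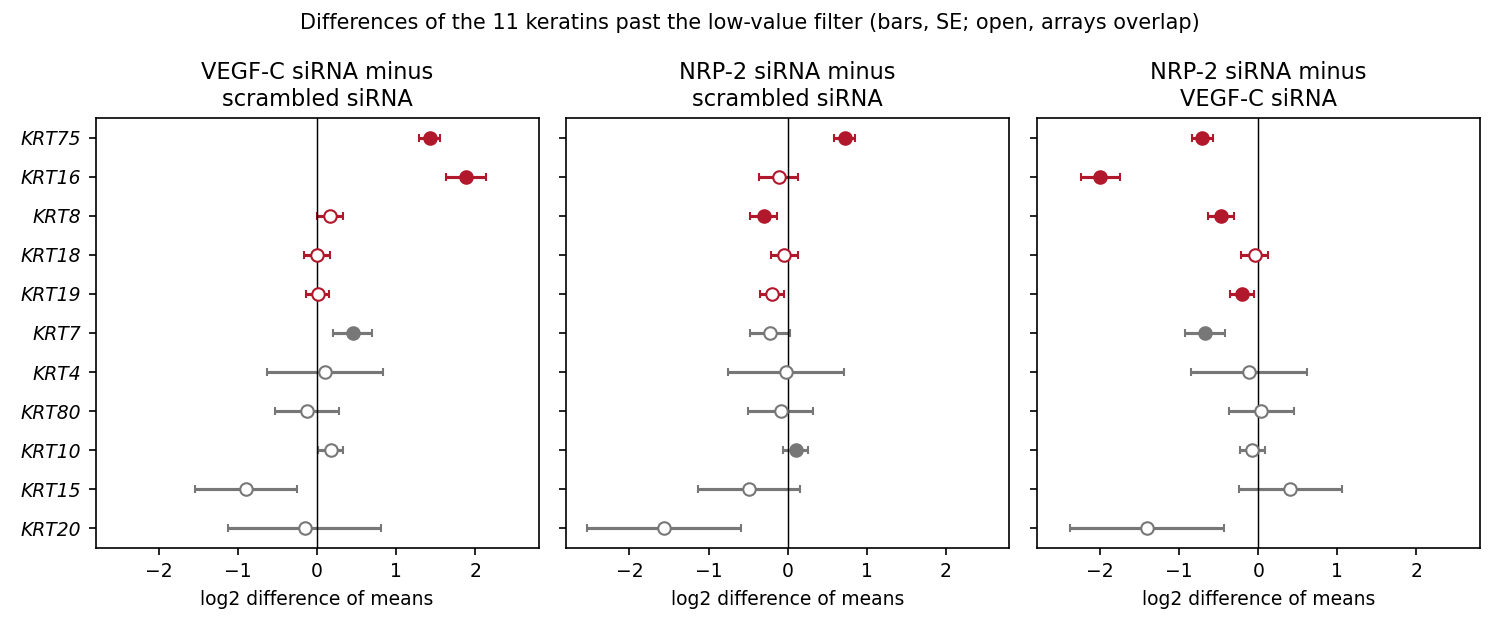
Log2 differences of group means (horizontal axes, bars show the SE) for the 5 keratin members in red and the 6 other keratins past the low-value filter in grey, in the 3 comparisons. Filled points have no overlap between the arrays of the groups. KRT75 and KRT16 lie furthest to the right with VEGF-C siRNA, at +1.43 and +1.88, and the widest error bars are those of KRT20.

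Of 45 other keratins listed, 37 had a named probe set and 6 passed the filter, and 0 of these were 2-fold apart without overlap in any comparison on all 6 arrays, while up to 2 of the type I and 1 of the type II genes among them were with 1 array left out. Over all genes the shares 2-fold apart on all arrays ran from 1.09% to 1.9% by direction and comparison, so 0 of 6 is near them. KRT7, the other main type II keratin of simple epithelium, had log2 13.73 and 13.54 after VEGF-C siRNA, 13.28 and 12.64 after NRP-2 siRNA, and 13.33 and 13.04 after scrambled siRNA. Its VEGF-C arrays were the highest, as those of KRT75 and KRT16 were, with a difference to scrambled siRNA of +0.45 (SE 0.25) that was +0.05 with the cell cycle covariate. KRT15, a type I keratin of basal cells, stood at -0.90 (SE 0.65) after VEGF-C siRNA and -0.49 (SE 0.65) after NRP-2 siRNA, and its arrays overlapped in both comparisons. Without scrambled array 2 these were -0.14 for VEGF-C siRNA and +0.27 for NRP-2 siRNA, and without scrambled array 1 they were -1.65 and -1.24. The NRP-2 value was +0.21 without NRP-2 array 1 and -1.19 without NRP-2 array 2. KRT4, KRT10, KRT20 and KRT80 overlapped between VEGF-C and scrambled siRNA, and KRT6C had no named probe set.

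Genes that work beside keratins were taken from lists written from general knowledge, but with earlier results of these arrays known. As for the members, nothing is read from the shares of these lists. Of 11 measured genes of the cornified envelope and epidermal differentiation, 1 was 2-fold higher without overlap after VEGF-C siRNA, PI3 (+1.48, SE 0.52), which encodes the protease inhibitor elafin. It was +0.57 with the cell cycle covariate, and the count of genes 2-fold higher was 3 without scrambled array 2 (1.9% of all genes were on all arrays). With NRP-2 siRNA 1 was 2-fold lower, SERPINB4 (-1.27, SE 0.48), a serpin of squamous cells, which was -0.69 without scrambled array 2 and -0.80 without NRP-2 array 1. SERPINB4 was dim, with a mean of log2 4.53 and NRP-2 arrays at 3.06 and 4.01. With the filter at log2 5 it dropped out, and 0 of 9 genes were 2-fold lower. The count of genes 2-fold lower was 0 without NRP-2 array 1 and 3 without NRP-2 array 2 or scrambled array 1 (1.38% of all genes were on all arrays). SCEL, which encodes the envelope protein sciellin, had 10.52 and 10.77 after VEGF-C siRNA, 9.38 and 9.17 after NRP-2 siRNA, and 10.01 and 9.74 after scrambled siRNA, so that its scrambled arrays lay between those of the targeting siRNAs. NRP-2 siRNA minus VEGF-C siRNA was -1.37 (SE 0.17) for SCEL, and the list had a median of -0.94 in that comparison, with 4 of 11 genes 2-fold lower (1.56% of all genes). That median was -0.41 without NRP-2 array 1 and -0.03 without the low-value filter. KLK5, a protease of shedding epidermis, was at +0.20 after VEGF-C siRNA and -0.74 (SE 0.18) after NRP-2 siRNA. Limma's adjusted p was under 0.05 for 0 of the 11 in each comparison, while an unadjusted p under 0.05 was found for 2 of 11, both higher, with VEGF-C siRNA (14.8% of all genes) and for 3 of 11, all lower, with NRP-2 siRNA (13.3%).

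The list of keratinocyte activation signals had 11 measured genes. It also held the receptor gene EGFR and IL1RN, the gene of a receptor antagonist, so not all of them encode activating signals. Of the 11 genes, ANXA1, EGF, HBEGF, IL6 and CXCL1, 5 in number, were 2-fold higher without overlap after VEGF-C siRNA (1.9% of all genes) and 0 after NRP-2 siRNA (1.36%). Without scrambled array 2 the VEGF-C count was 3, and the NRP-2 count was 3 without NRP-2 array 2, 2 without scrambled array 1 and 1 without scrambled array 2. The list's median was +0.94 for VEGF-C siRNA, with 10 of 11 genes above 0, and +0.43 for NRP-2 siRNA, with 9 of 11 above 0. The VEGF-C median was +0.68 without scrambled array 2 and +0.45 with the cell cycle covariate. The NRP-2 median was +0.07 without NRP-2 array 1, +0.14 without scrambled array 2 and +0.77 without NRP-2 array 2. ANXA1, the gene of annexin A1 and the one with the smallest p in the list, stood at +1.23 after VEGF-C siRNA and +0.96 after NRP-2 siRNA (SE 0.12 each), with no overlap in either comparison. The genes named next, HBEGF and EGFR, were the 2 of 11 below 0 after NRP-2 siRNA. The EGF receptor ligand gene HBEGF had 10.79 and 10.94 after VEGF-C siRNA, 9.71 and 9.07 after NRP-2 siRNA, and 10.19 and 9.41 after scrambled siRNA. Like KRT16, it was high in both VEGF-C arrays and overlapped between NRP-2 and scrambled siRNA, with +1.06 (SE 0.33) for VEGF-C minus scrambled siRNA, +0.68 without scrambled array 2 and +0.51 with the covariate. EGF, the gene of another ligand of that receptor, stood at +1.05 after VEGF-C siRNA and +0.30 after NRP-2 siRNA (SE 0.18 each). EGFR, the receptor itself, was at +0.49 after VEGF-C siRNA and -0.33 after NRP-2 siRNA, with an SE of 0.18 each. Of 16 transcription factors of epithelial keratin genes 0 were 2-fold apart in any comparison on all arrays (1 was lower after NRP-2 siRNA than after scrambled siRNA without NRP-2 array 2), and the AP-1 subunit gene FOSL1 stood at +0.82 after VEGF-C siRNA and +0.60 after NRP-2 siRNA (SE 0.19 each). Over all genes the shares 2-fold apart without overlap ran from 1.09% to 1.9% by direction and comparison, so 0 of 16 is near them. EHF, an epithelial ETS factor, stood at -0.20 after VEGF-C siRNA and -0.80 (SE 0.23) after NRP-2 siRNA, and was -0.49 without NRP-2 array 1. Neither list had a gene with limma's adjusted p under 0.05. In the activation list, limma's unadjusted p was under 0.05 for 5 of 11 genes after VEGF-C siRNA (14.8% of all genes). It was so for 1 of 11 after NRP-2 siRNA (13.3%), and all of these were higher. Among the 16 transcription factors it was so for 3 after VEGF-C siRNA (14.8%), all higher. After NRP-2 siRNA it was so for 2 higher and 3 lower (13.3% of all genes with both directions together).

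Of 17 genes of desmosomes, hemidesmosomes and keratin-binding plakins, the anchors of keratin filaments at the membrane, 0 were 2-fold apart after VEGF-C siRNA and 2 were 2-fold lower after NRP-2 siRNA (1.38% of all genes), or 0 without NRP-2 array 1 and 1 without scrambled array 1. These were PPL (periplakin; -1.38, SE 0.46) and PKP4 (plakophilin-4; -1.05, SE 0.21). PPL was -0.66 without NRP-2 array 1 and -2.10 without NRP-2 array 2, and PKP4 was -0.82 without NRP-2 array 1 and -0.92 without scrambled array 1. PKP3, another plakophilin gene, stood at +0.36 (SE 0.14) after VEGF-C siRNA and -0.12 after NRP-2 siRNA. Over all genes the shares 2-fold apart on all arrays ran from 1.09% to 1.9% by direction and comparison. Counts of 0 here and for the lists named next are near these shares. Of 11 partners and modifiers of keratin filaments, 1 was 2-fold higher without overlap after VEGF-C siRNA (1.9% of all genes), and 0 were 2-fold apart in the other comparisons. It was FAM83D, a gene of the mitotic spindle, at +1.28 (SE 0.66). FAM83D was +0.36 without scrambled array 2, +2.20 without scrambled array 1 and -0.08 with the cell cycle covariate. The count after VEGF-C siRNA was 0 without scrambled array 2. For NRP-2 siRNA against scrambled siRNA 1 was higher without NRP-2 array 2 or scrambled array 1 (1.36% of all genes were on all arrays). For NRP-2 siRNA against VEGF-C siRNA 1 was lower without NRP-2 array 1 (1.56% of all genes were on all arrays). None of the 5 other intermediate filament genes measured, BFSP1, NEFL, NES, SYNM and VIM, was 2-fold apart in any comparison on all arrays, and 1 was without VEGF-C array 2, in NRP-2 siRNA against VEGF-C siRNA.

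**Figure D3:**
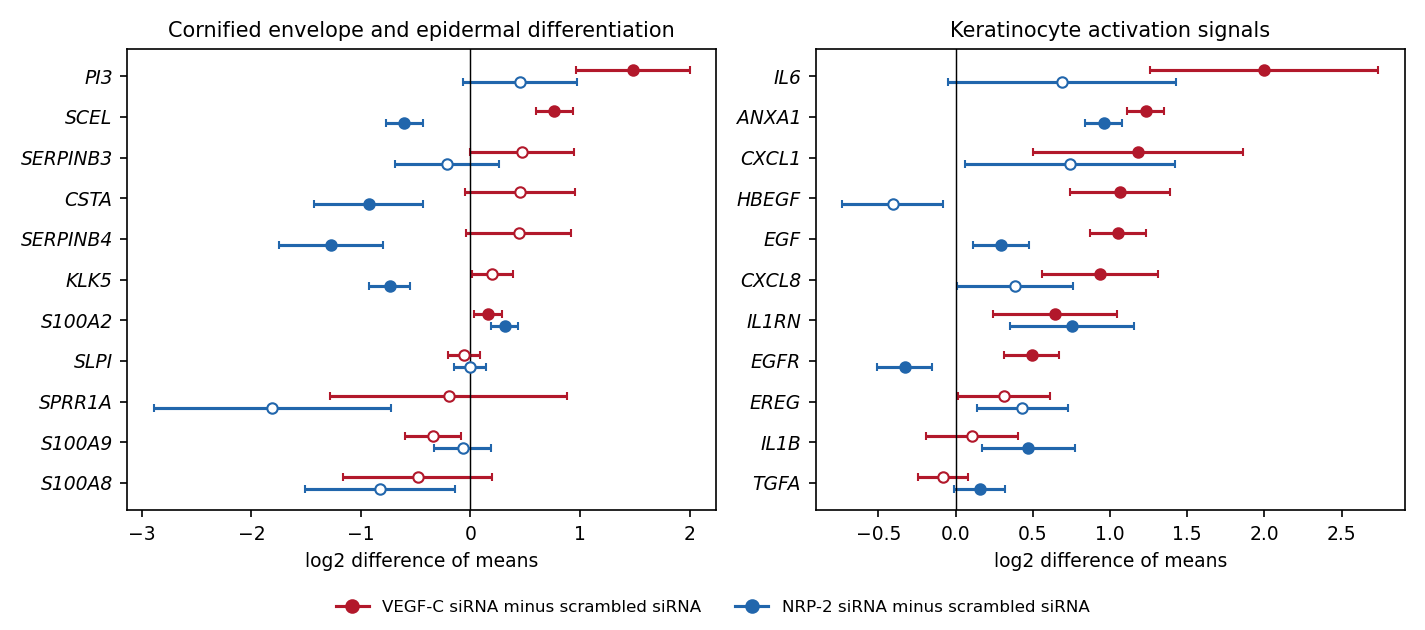
Log2 differences to scrambled siRNA (horizontal axes, bars show the SE) of the measured genes of the epidermal differentiation list (left) and of the keratinocyte activation list (right), with VEGF-C siRNA in red above NRP-2 siRNA in blue. Filled points have no overlap between arrays. SCEL lies to the right of 0 after VEGF-C siRNA and to the left after NRP-2 siRNA, and HBEGF is filled with VEGF-C siRNA alone.

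Over the 6 arrays, KRT75 and KRT16 had a Pearson correlation of 0.83, KRT8 and KRT19 one of 0.81, KRT8 and KRT18 one of 0.60, and KRT75 and KRT19 one of 0.02. The points are 3 groups of 2 arrays, so that these describe the groups as much as the genes. Among 2400 genes outside the keratins whose arrays spanned at least 1 log2 unit, those most like KRT75 were PPP6R3 (r = 0.97), EPG5 (r = 0.97) and PLAC1 (r = 0.95), and 17 genes reached 0.9. Those most like KRT16 were ZNF598 (r = 0.99), ELF4 (r = 0.98) and PVR (r = 0.98), and 54 genes reached 0.9.

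**Figure D4:**
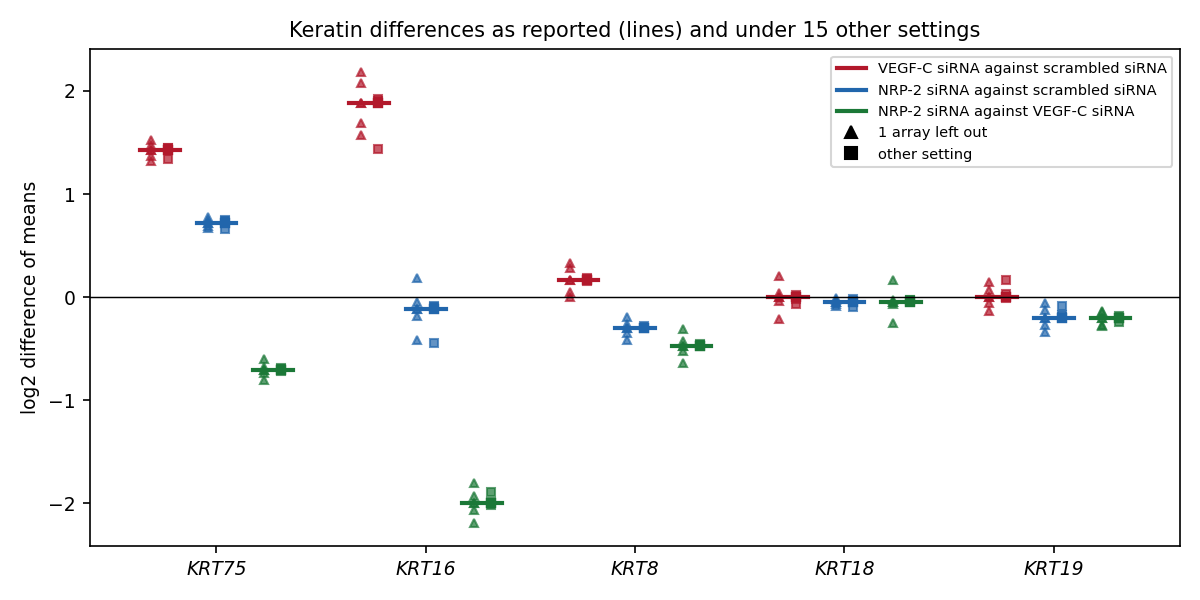
Log2 differences of group means (vertical axis) of the 5 measured keratin members in the 3 comparisons, as reported (lines), with 1 array left out (triangles) and under 9 other settings (squares). KRT75 and KRT16 keep their sides of 0 after VEGF-C siRNA, while the small differences of KRT18 and KRT19 cross it. Of the other settings, only equal medians, quantile normalization and the G2 and mitosis covariate can move these differences.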

How the data were processed

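Expression was read on 6 arrays. The authors deposited values on a log2 scale, 1 for each probe set. Per the submitters' processing notes, Partek and GCRMA were used, with settings not given here. GCRMA compresses values at the floor, so the size of differences of dim genes is uncertain in either direction, which was not tested. Values ran from 0.82 to 16.32. Only 2 arrays a group limit the precision, and no detection calls were used.

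Probe sets were named from the platform annotation of 2016, in which 41091 had 1 gene, 1801 several and 11721 none named, besides 62 controls. The probe set of highest mean stood for each gene, if that mean was at least log2 4. All 11131 genes and 6 arrays entered 1 fit (limma 3.58.1, R 4.3.3, lmFit with eBayes), with two-sided p-values adjusted by Benjamini-Hochberg and a threshold of 0.05. The procedure was tested on simulated data. A difference is one of log2 means, and a fold is 2 raised to its size. Genes 2-fold apart without overlap differ by at least 1 log2 unit, with all arrays of a group on one side.

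The naming rule was all 10 members, up to 4 genes of each other list by smallest p against scrambled siRNA, and the 3 genes most like KRT75 and KRT16. Not all genes it allows are named. The other keratins named fall outside it: all 6 measured are given, chosen after their values were seen. VIM, CXCL1, IL6, IL1RN and the undetected markers also fall outside it. The members and the lists were chosen with earlier results of these data known. Sequences are from RefSeq tables of GRCh38.p14, which held a promoter for 3 of the 10 members. Planned comparisons of protein sequence were not made.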

Additional observations from a re-analysis of the deposited data

How the results depend on the processing

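The count of members past limma's threshold (0 of 5 in each comparison, and 0 of 7 without the low-value filter) was the same under every alternative run. The count of members 2-fold apart without overlap (2, 0 and 1) was the same wherever it was recounted, which leaves out the 4 alternatives that change only the model (the compared arrays alone, the trend, the block and the covariate). The alternatives were the mean of all probe sets past the filter, no filter, a filter at log2 5, equal medians, quantile normalization on top, the 4 compared arrays alone, an intensity trend, the replicate block, the G2 and mitosis covariate, and leaving out each array. Over all genes 1 passed the threshold without the filter, for VEGF-C against scrambled siRNA and for NRP-2 against VEGF-C siRNA. Members at an unadjusted p under 0.05 in the last comparison numbered 2 or 3. Besides leaving out an array, only equal medians, quantile normalization and the covariate could move the difference of a member. KRT75 with VEGF-C siRNA ranged from +1.32 to +1.53 with 1 array left out, and KRT16 from +1.58 to +2.19. The cell cycle covariate moved KRT16 there to +1.44. KRT16 with NRP-2 siRNA ranged from -0.42 to +0.19, and KRT18 with VEGF-C siRNA from -0.21 to +0.21, so neither has a settled direction. With the replicate block the differences cannot move, since every group has 1 array of each number. Limma's adjusted p with VEGF-C siRNA was then 0.124 for KRT75 and KRT16 (SE 0.14 and 0.17). The labels do not pair arrays by number. Deviations of same-numbered arrays correlated at 0.58 between NRP-2 and scrambled siRNA, 0.12 between VEGF-C and NRP-2 siRNA and 0.11 between VEGF-C and scrambled siRNA. Medians of the lists, recomputed after the data were seen, were less stable. That of the epidermal differentiation list with NRP-2 siRNA (-0.60) ranged from -0.70 to +0.11, and that of the activation list with VEGF-C siRNA (+0.94) from +0.45 to +1.05. Those of the activation list with NRP-2 siRNA (+0.43) and of the epidermal differentiation list between the targeting siRNAs (-0.94) ranged from +0.07 to +0.77 and from -0.95 to -0.03. The cause was not tested.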

Other observations

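Of the 6 measured keratins outside the 10 members, KRT4, KRT10, KRT15, KRT20 and KRT80 had a larger difference between arrays of 1 group than between any pair of group means, while KRT7 did not (0.65 against 0.68). KRT20, a type I keratin of intestinal and urothelial cells, had log2 8.74 and 8.94 after VEGF-C siRNA, 6.04 and 8.82 after NRP-2 siRNA, and 8.23 and 9.76 after scrambled siRNA. KRT15 had 10.71 and 10.29 after VEGF-C siRNA, 10.20 and 11.61 after NRP-2 siRNA, and 10.64 and 12.14 after scrambled siRNA. KRT4, a type II keratin of stratified mucosa, had 7.37 and 7.70 after VEGF-C siRNA, 8.35 and 6.48 after NRP-2 siRNA, and 8.17 and 6.70 after scrambled siRNA. For KRT15 and KRT20 the second NRP-2 array and the second scrambled array were the higher of their groups, and for KRT4 and KRT80 the lower. Over the 6 arrays, the correlation with the mean level of G2 and mitosis genes was -0.86 for KRT15, -0.63 for KRT20, +0.62 for KRT4 and +0.54 for KRT80, given without a p because the arrays form groups of 2. The same correlation was +0.70 for KRT75 and +0.59 for KRT16. Among the members, KRT18 (0.41 against 0.04) and KRT19 (0.28 against 0.21) also had a larger difference between arrays of 1 group than between group means. The part of the cell cycle genes in these differences between arrays was not tested.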
